A study of Drosophila melanogaster with 12 samples.

Results

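The 10 genes described here encode receptors for GABA and for glutamate, apart from the ionotropic glutamate receptor subunits of the nerve-muscle junction. They were taken by gene number from the deposited count table, which holds 17561 genes. Rdl, Grd and Lcch3 encode subunits of GABA-gated ion channels, and GABA-B-R1 and GABA-B-R2 encode metabotropic GABA receptors. GluClalpha encodes a glutamate-gated chloride channel, Nmdar1 and Nmdar2 NMDA-type channel subunits, GluRIB an AMPA-type subunit, and mGluR a metabotropic glutamate receptor. Of the 10, 9 were found under their listed number, and GluRIB under CG43743, of which the listed CG4481 is an older tag in the RefSeq gene table. All 10 passed the filter on low counts.

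GABA is the main fast inhibitory transmitter of the insect brain, acting on chloride channels that contain Rdl, while its metabotropic receptors act through G proteins. Glutamate excites muscle at the insect neuromuscular junction, but in the central nervous system it can also inhibit, through a chloride channel that vertebrates lack. ELAV and its relative FNE bind RNA in neurons and direct alternative splicing and the choice of poly(A) site. The gene-level counts used here do not separate splice forms or 3′ UTR forms, so the values concern each gene's total transcripts.

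Poly(A) RNA of Drosophila melanogaster embryos aged 20 to 24 h was sequenced in 12 libraries, 3 in each of 4 groups. The groups were elav null, elav fne double null (null alleles of elav and fne together), elav WDd (an elav allele that the labels do not describe further) and WT. The WT control was not free of elav mutations. Its labels give the elav e5 allele over the FM7 balancer X chromosome, and the header of the count table gives the elav null allele over FM7. Mutants were recognised by lacking the GFP of the balancer, so WT embryos carried FM7 and the picked mutants did not. Whole embryos were used, with no sorting of neurons. The labels do not state whether libraries of a group are separate collections, so p-values reflect only how these libraries vary, which may be technical.

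Library totals ran between 22491041 and 97043662 counts, and levels are given in CPM, counts scaled to library size with TMM factors. The targeted genes were read first. elav had 3.99 to 6.27 CPM in elav null, 4.99 to 6.12 in double null, 146 to 191 in WDd and 68.6 to 160.5 in WT libraries. fne had 19.6 to 30.6 CPM in the double null, against 135 to 250 in WT. In the library labelled elav null replicate 3, however, fne had 36.2 CPM, against 173 and 243 in the other elav null libraries, which goes against its label. That library was also the shallowest, and at an equal depth of 2e+07 counts it detected 10524 genes. Replicate 1 of elav null detected 11869 and replicate 2 of the double null 11557, while the other 9 libraries detected 13259 to 15578. Summed over 8 markers of ovary and adult females, the 3 elav null libraries had 87.5, 655 and 13.7 CPM, against at most 5.87 in any other library. Because of the fne level of the library labelled replicate 3, receptor calls in comparisons with elav null are also given without it. Other elav null values include it unless stated. Leaving it out keeps replicates 1 and 2, which have the higher sums of the ovary and adult female markers.

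In the double null, 4 of the 10 receptor genes fell against WT, and in elav null and WDd none passed the test. The 4 were mGluR, Lcch3, GABA-B-R1 and GABA-B-R2, at 22.8%, 35.6%, 50.1% and 50.6% of WT. None was called higher. Across all 14031 genes tested, 14.7% were called lower and 6.68% higher in this comparison. With RLE size factors in place of TMM the same 4 genes were called, although higher genes then made up 42.4% of all calls, against 31.3% with TMM. Without the 3 libraries of lowest gene detection, 5 receptors were called, these 4 and Nmdar1. Calls rest on edgeR's quasi-likelihood test at an adjusted p under 0.05, with Benjamini-Hochberg adjustment over all genes. The CPM ranges of the double null and WT did not overlap for 6 of the 10 genes, all lower in the double null, against 25.4% of all genes. The median log2 fold change of the 10 was -0.82, and that of all genes tested was -0.03.

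**Figure D1:**
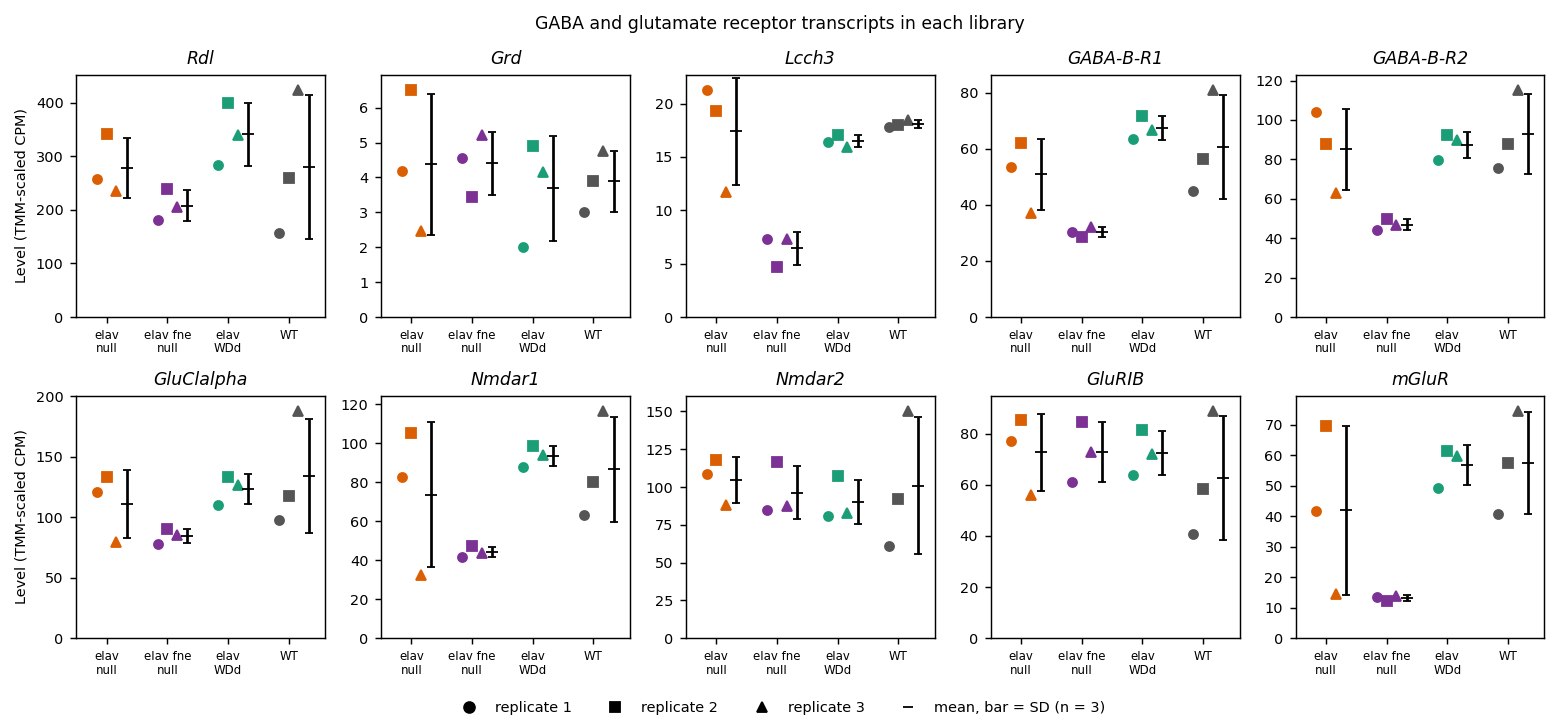
TMM-scaled CPM of each receptor gene in every library, by genotype, with the mean and SD of 3 libraries beside the points. The 3 double null libraries lie below all WT libraries for Lcch3, GABA-B-R1, GABA-B-R2, GluClalpha, Nmdar1 and mGluR.

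mGluR, the G-protein-coupled receptor for glutamate (CG11144, chr4:936819-949441, plus strand), differed most. It had 13.5, 12.1 and 13.8 CPM in double null replicates 1 to 3, against 40.8, 57.5 and 74.35 CPM in WT. In elav null it had 41.6, 69.6 and 14.4 CPM, and in WDd 49.2, 61.4 and 59.8 CPM. All 3 double null libraries were low, the library labelled elav null replicate 3 lay close to them, and every other library was at or above the lowest WT value. The log2 fold change of the double null against WT was -2.13 ± 0.41 (SE; edgeR adjusted p = 0.00194).

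GABA-B-R1 and GABA-B-R2 form the GABA-B receptor together, the R1 subunit binding GABA and the R2 subunit coupling to the G protein. GABA-B-R1 (CG15274, chr2L:15016331-15034704, plus strand) had 30.5, 28.55 and 31.9 CPM in the double null, against 44.75, 56.2 and 80.8 CPM in WT. Its other values were 53.6, 61.9 and 37.15 CPM in elav null and 63.3, 71.8 and 66.7 CPM in WDd. The double null libraries were the lowest of the 12, with no overlap with any other genotype. GABA-B-R2 (CG6706, chr3R:21770333-21775840, minus strand) had 44.2, 49.8 and 46.7 CPM in the double null, against 75.45, 87.8 and 115.0 CPM in WT. It had 104, 87.8 and 63.15 CPM in elav null and 79.8, 92.2 and 89.9 CPM in WDd, again with the double null below every other library. The log2 fold changes against WT were -1.0 ± 0.23 for GABA-B-R1 (edgeR adjusted p = 0.00563) and -0.98 ± 0.20 for GABA-B-R2 (edgeR adjusted p = 0.00287). The ratio of GABA-B-R2 to GABA-B-R1 counts within a library was 1.45, 1.74 and 1.46 in the double null, against 1.69, 1.56 and 1.42 in WT. The log2 difference of that ratio was -0.01 (exact permutation test over libraries, two-sided p = 1). With 3 libraries against 3 this test cannot give a p below 0.1.

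Of the 3 subunits of GABA-gated channels, Lcch3 fell in the double null and Rdl and Grd did not pass the test. Lcch3, a beta-like subunit (CG17336, chrX:15925105-15928529, plus strand), had 7.36, 4.66 and 7.33 CPM in the double null, against 17.8, 18.0 and 18.5 CPM in WT. It had 21.2, 19.3 and 11.7 CPM in elav null and 16.4, 17.0 and 16.0 CPM in WDd. The WT libraries were almost level, the WDd libraries lay just below them, and the double null libraries lay below all others. The log2 fold change of the double null against WT was -1.49 ± 0.26 (SE; edgeR adjusted p = 0.00102). Lcch3 shares 456 of its exon bases with Ranbp16 on the opposite strand, and the labels do not say whether reads were counted by strand. Ranbp16 itself differed by -0.29 ± 0.16 (log2; edgeR adjusted p = 0.249).

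Rdl, the principal GABA-gated chloride channel subunit and the site of dieldrin resistance (CG10537, chr3L:9145838-9182149, minus strand), had 180.2, 238 and 204 CPM in the double null. Its WT values were 157, 259 and 423 CPM, which enclosed those of the double null. In elav null it had 257, 341 and 235 CPM and in WDd 283, 399 and 339.7 CPM. The double null differed from WT by -0.43 ± 0.29 on the log2 scale (edgeR adjusted p = 0.361). Grd (CG7446, chr3L:17823333-17839767, plus strand), a subunit related to GABA and glycine receptor subunits, was the scarcest of the 10. It had 4.56, 3.44 and 5.21 CPM in the double null, 4.19, 6.49 and 2.46 in elav null, 2.01 to 4.91 in WDd and 3.01 to 4.77 in WT. Its smallest count was 53 (95% exact Poisson interval 39.7 to 69.3, counting error only), in the library labelled elav null replicate 3. The log2 fold change of the double null against WT was 0.18 ± 0.48 (edgeR adjusted p = 0.862), and all 4 genotypes overlapped. Grd shares 1118 exon bases with CG5577 on the opposite strand, which differed by -0.10 ± 0.23 (log2; edgeR adjusted p = 0.838).

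The count ratio of Lcch3 to Rdl was 0.0409, 0.0196 and 0.0359 in the double null, against 0.113, 0.0695 and 0.0438 in WT. The double null values all lay below those of WT, with a log2 difference of -1.19 (exact permutation p = 0.1, adjusted 0.24 over 24 ratio comparisons). That p is the smallest the design allows, so Lcch3 and Rdl are not shown to differ in their response. For Grd to Rdl the log2 difference was 0.51 (exact permutation p = 0.3).

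Among the ionotropic glutamate receptors, none of 4 passed the test in the double null, but they did not all lie alike. GluClalpha, the glutamate-gated chloride channel and target of ivermectin (CG7535, chr3R:19730715-19775231, plus strand), had 78.25, 90.1 and 85.1 CPM in the double null, against 97.8, 117.5 and 187 CPM in WT. Its groups did not overlap, and the log2 fold change was -0.67 ± 0.24 (edgeR adjusted p = 0.065). Nmdar1, the obligate NMDA receptor subunit that binds glycine (CG2902, chr3R:5508842-5523328, minus strand), had 41.9, 47.1 and 43.8 CPM in the double null, against 63.0, 80.3 and 116 CPM in WT. These did not overlap either, with a log2 fold change of -0.97 ± 0.33 (edgeR adjusted p = 0.0514). Both genes passed the threshold when WT replicate 1, the lowest WT library for every one of the 10 genes, was left out. Nmdar1 then differed by -1.13 (edgeR adjusted p = 0.0388). It also passed in a fit of the 6 libraries alone. For the other mutants, Nmdar1 had 82.8, 105 and 32.55 CPM in elav null and 88.0, 98.4 and 94.0 CPM in WDd. GluClalpha had 79.35 to 133 CPM in elav null and 109.8 to 133 CPM in WDd.

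Nmdar2, the glutamate-binding NMDA subunit (CG33513, chrX:1483625-1507809, minus strand), had 84.9, 116 and 87.4 CPM in the double null, inside the WT values of 60.8, 92.0 and 150.0 CPM. It had 108, 118 and 88.0 CPM in elav null and 81.0, 107 and 83.1 CPM in WDd. Its log2 fold change in the double null was -0.07 ± 0.27 (edgeR adjusted p = 0.909), a sign that turned to 0.05 with RLE factors and in DESeq2. GluRIB (listed as CG4481, chr3L:9251978-9288522, plus strand), which lies 69.8 kb from Rdl, had 60.9, 84.6 and 72.8 CPM in the double null, against 40.8, 58.4 and 88.7 CPM in WT. In elav null it had 55.9 to 85.2 CPM and in WDd 64.05 to 81.5 CPM. The double null differed from WT by 0.22 ± 0.25 (log2; edgeR adjusted p = 0.644).

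**Figure D2:**
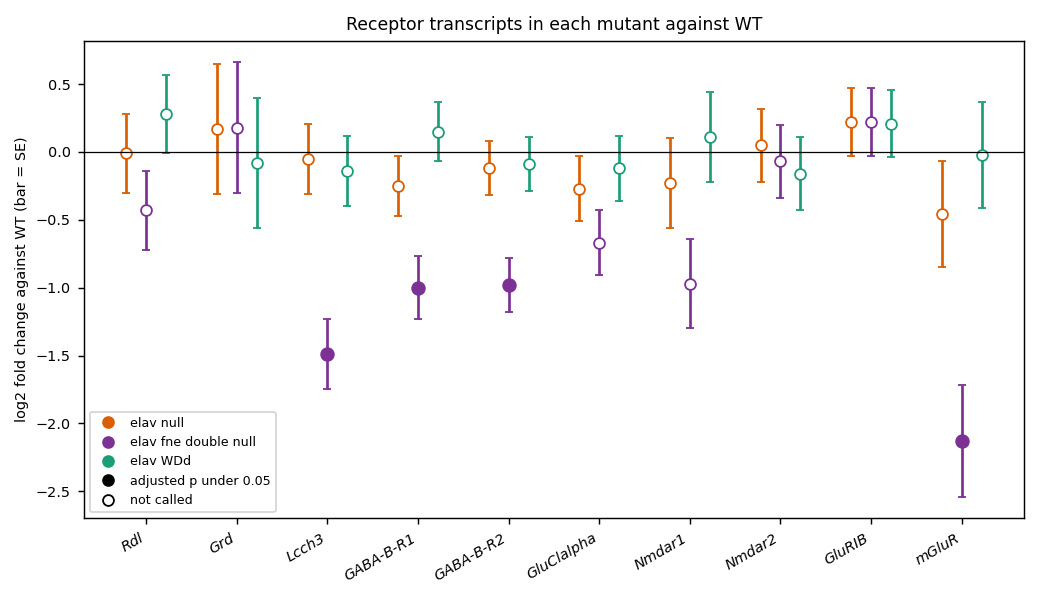
Log2 fold change against WT, with its SE, of the 10 receptor genes in elav null, double null and WDd embryos; filled points passed an adjusted p under 0.05. The 4 filled points, all in the double null, lie between -2.13 and -0.98; for Nmdar2 in the double null, near 0, the sign turned with RLE factors.

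The proportion of the partner subunits of the NMDA receptor was read within each library, and no comparison of it passed a test. Nmdar2 counts were 2.03, 2.47 and 1.99 times those of Nmdar1 in the double null, against 0.965, 1.15 and 1.29 times in WT. WDd had ratios of 0.92, 1.09 and 0.884, and elav null 1.31, 1.12 and 2.7, the highest again in the library labelled replicate 3. The double null libraries lay above all WT and all WDd libraries. The log2 difference was 0.94 against WT (exact permutation p = 0.1, adjusted 0.24), the smallest p possible, and 0.45 against elav null (exact permutation p = 0.4), or 0.83 without the library labelled elav null replicate 3. WDd differed from the double null by -1.17 (exact permutation p = 0.1). In WDd the ratio of GABA-B-R2 to GABA-B-R1, 1.26, 1.28 and 1.35, lay below that of WT, with a log2 difference of -0.26 (exact permutation p = 0.1, adjusted 0.24).

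**Figure D3:**
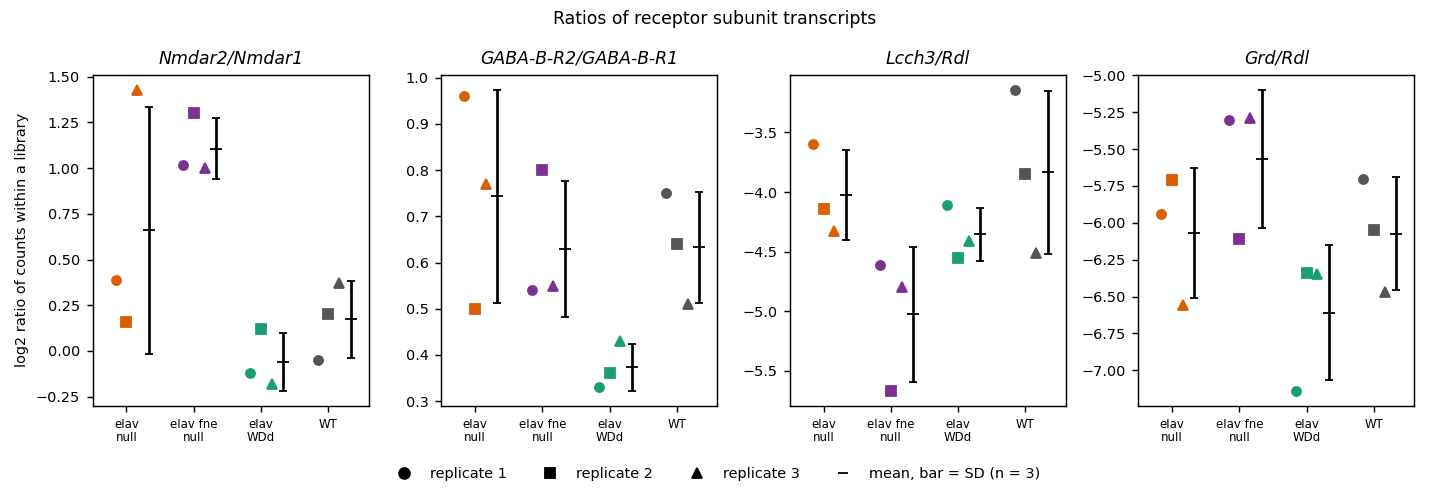
Log2 ratio of the counts of receptor subunits within each library, by genotype, with the mean and SD of 3 libraries. Nmdar2 to Nmdar1 is higher in all 3 double null libraries than in WT and WDd, and Lcch3 to Rdl lower than in WT; GABA-B-R2 to GABA-B-R1 overlaps between the double null and WT.

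Whole embryos were measured, so fewer neurons and less RNA per neuron cannot be told apart. Markers of cell types were therefore read in the same libraries. Over all genes tested, 14.7% were called lower and 6.68% higher in the double null against WT, with a median log2 fold change of -0.03. Of 12 neuronal markers, 4 fell in the double null (nSyb, Csp, cpx and nrv3), with a median log2 fold change of -0.42, and none of the 12 was at 0 in any library. The call of nSyb was lost without double null replicate 1, double null replicate 3 or WT replicate 3, and that of cpx without double null replicate 1. Their summed level was 2445 to 3090 CPM in the double null, 2753 to 4380.0 in elav null, 3700.0 to 4576 in WDd and 2928 to 5479 in WT. The summed level of the 10 receptors was 546 to 675 CPM in the double null, 619.7 to 1027 in elav null, 836 to 1067 in WDd and 601.5 to 1258 in WT. Within WT, replicate 1 had the lowest and replicate 3 the highest sum of both receptors and neuronal markers. Of 8 neuroblast markers, 4 were higher in the double null (ase, mira, wor and insc), and their sum averaged 377 CPM there, against 245 CPM in WT. The wor call was lost without WT replicate 1, and that of insc without double null replicates 2 or 3 or WT replicates 1 or 2, while DESeq2 called 6 higher. The 10 glial markers summed to 1630 ± 180.0 CPM in the double null and 1530 ± 91.5 CPM in WT (SD, n = 3 each), with 2 called higher and 2 lower, or 4 higher with RLE factors and in DESeq2. Neither lower call, of wrapper and Gat, held without double null replicate 1, and that of wrapper was also lost without double null replicate 2, WT replicate 1 or WT replicate 2. Of 7 haemocyte markers, 1 was called higher and 1, Col4a1, lower, a call lost when any of the double null libraries was left out and without WT replicate 3. The 10 muscle markers, all called lower in the double null, summed to 2970 CPM there, against 41200 CPM in WT. In elav null, where 17.7% of all genes were called against WT, they summed to 16100.0, 8351 and 2288 CPM. There 9 muscle markers were called lower, 10 without the library labelled replicate 3 and 5 in a fit of the 6 libraries alone. The part of this shift of the muscle markers in the CPM of other genes was not tested.

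Set against the summed neuronal markers of the same library, the receptors of the double null lay on both sides of WT. Relative to that sum, mGluR differed from WT by -1.56 on the log2 scale and Lcch3 by -0.99. GABA-B-R1 and GABA-B-R2 each differed by -0.43, and Nmdar1 by -0.39. For these 5 genes every double null library lay below every WT library. GluRIB (0.81), Grd (0.71) and Nmdar2 (0.54) lay on the other side, each without overlap, and GluClalpha (-0.08) and Rdl (0.21) overlapped WT. Each of the 8 differences without overlap had an exact permutation p = 0.1, the smallest possible, which adjusted over 60 comparisons was 0.214, so none passes the threshold. Over all genes tested, scaled in the same way, 8.91% lay lower without overlap and 28.5% higher, beside 5 and 3 of the 10 receptors. On the higher side the receptors were thus near the share of all genes. nrv3 was the most abundant of the markers, and its own fall in the double null enters the sum.

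**Figure D4:**
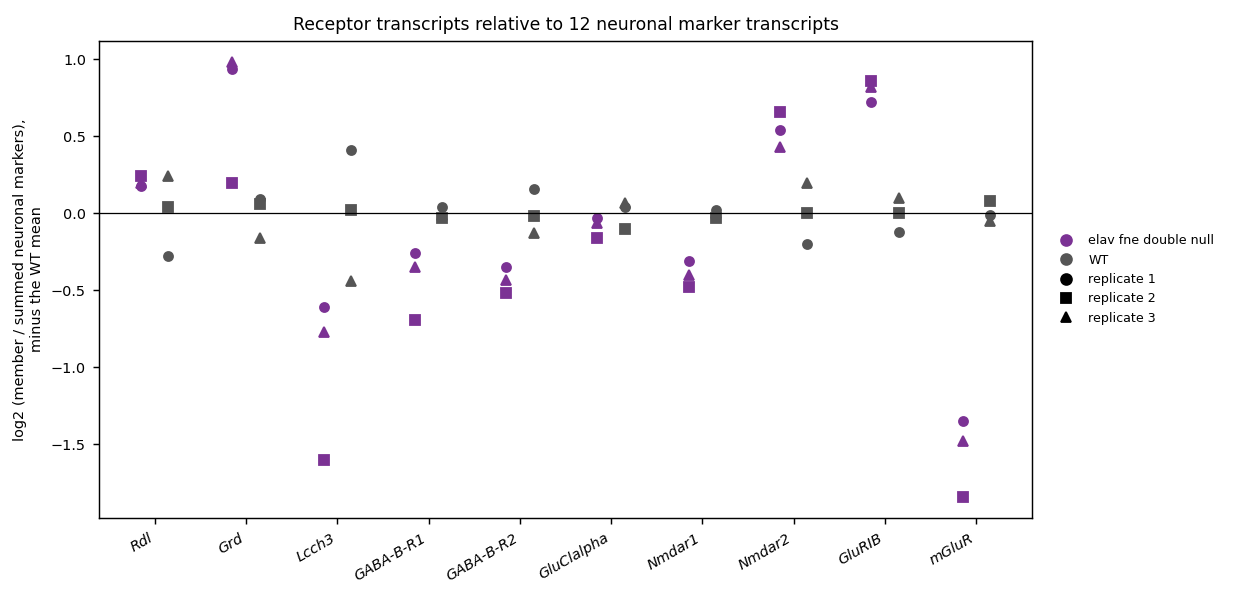
Log2 of each receptor's CPM over the summed CPM of 12 neuronal markers, per library, with the WT mean of each gene set to 0; double null libraries stand left of WT libraries. mGluR and Lcch3 lie lowest in the double null, and GluRIB, Grd and Nmdar2 lie above WT, as did 28.5% of all genes tested.

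In elav null, 0 of the 10 receptors passed edgeR's test against WT, with 0 under an unadjusted p of 0.05 and 0 called by DESeq2, while 17.7% of all genes tested were called. Their log2 fold changes ran between -0.46 ± 0.39 for mGluR (edgeR adjusted p = 0.496) and 0.22 ± 0.25 for GluRIB (edgeR adjusted p = 0.634), with a median of -0.09 against -0.11 over all genes. The library labelled elav null replicate 3 was the lowest of its group for all 10 genes. Over the 10 genes its mean absolute log2 distance was 0.38 to the double null mean, 0.84 to the other elav null libraries and 0.68 to the WT mean. Without it mGluR differed from WT by -0.04, and again no receptor was called.

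In WDd, edgeR likewise called 0 of the 10 against WT, with 0 under an unadjusted p of 0.05 and 0 in DESeq2. Few genes were called in that comparison, 0.2% of those tested. The fold changes ran between -0.16 ± 0.27 for Nmdar2 and 0.28 ± 0.29 for Rdl on the log2 scale (edgeR adjusted p = 1 for both). Lcch3 alone had groups that did not overlap, with WDd just below WT, against 7.6% of all genes lower without overlap.

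The double null was compared directly with the other mutants. Against elav null, Lcch3 was the only receptor called (log2 fold change -1.44 ± 0.26, edgeR adjusted p = 0.0479), where 0.185% of all genes were called lower. Among the fits that lost this call were those with RLE factors, with the 6 libraries alone, and without any of elav null replicate 1, elav null replicate 2 or double null replicates 1 to 3. The other values were -1.68 ± 0.40 for mGluR (edgeR adjusted p = 0.0983), -0.86 ± 0.20 for GABA-B-R2 (adjusted p = 0.0906) and -0.75 ± 0.22 for GABA-B-R1 (adjusted p = 0.17). Without the library labelled elav null replicate 3, 5 receptors were called lower in the double null, where 4.94% of all genes were called lower. They were Lcch3 at -1.64, mGluR at -2.07, Nmdar1 at -1.08, GABA-B-R2 at -1.03 and GABA-B-R1 at -0.92, with edgeR adjusted p between 0.000316 and 0.0168. The elav null libraries left in that fit, replicates 1 and 2, had 87.55 and 655 CPM of the ovary and adult female markers. The part of that material in these calls was not tested.

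WDd embryos had more of 5 receptor transcripts than the double null. The log2 fold changes were 2.11 ± 0.41 for mGluR (edgeR adjusted p = 0.0022), 1.35 ± 0.26 for Lcch3 (0.00211) and 1.15 ± 0.23 for GABA-B-R1 (0.00241). GABA-B-R2 was higher by 0.90 ± 0.20 (edgeR adjusted p = 0.00561) and Nmdar1 by 1.08 ± 0.33 (adjusted p = 0.0319). Of all genes tested, 14.3% were called higher in WDd than in the double null. Nmdar1 lost its call with RLE factors and without any of the 6 libraries compared, its value staying between 0.94 and 1.10. Groups did not overlap for 7 of the 10, these 5 with Rdl and GluClalpha, against 28.9% of all genes. Between WDd and elav null, edgeR called 0 of the 10, with 0 under an unadjusted p of 0.05 and 0 in DESeq2, against 16.8% of all genes, and again 0 without the library labelled elav null replicate 3. These comparisons share libraries with those against WT.

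Compared per kilobase of exon, Rdl was the most abundant of the 10 in every genotype and Grd the scarcest. In WT the mean levels were 31.1 CPM per kb for Rdl, 23.3 for GABA-B-R2, 20.8 for Nmdar1 and 20.2 for GluClalpha. Nmdar2 followed at 12.6, GABA-B-R1 at 10.7, Lcch3 at 9.51, mGluR at 9.07, GluRIB at 8.72 and Grd at 0.957 CPM per kb. Only the last step, GluRIB to Grd, separated neighbours whose WT ranges did not overlap. In the double null, Rdl at 23.1 CPM per kb stood clear of GluClalpha (12.7), Nmdar2 (12), GABA-B-R2 (11.8), Nmdar1 (10.6) and GluRIB (10.1), whose neighbours overlapped. Below them GABA-B-R1 (5.37), Lcch3 (3.39), mGluR (2.07) and Grd (1.08 CPM per kb) had ranges that did not overlap.

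Lcch3 and Nmdar2 lie on the X chromosome. The dosage compensation RNA roX2, which coats the male X, averaged 48.0 CPM in elav null embryos, 40.1 in double null and 21.9 in WDd embryos, against 7.12 in WT. Its part in the levels of the X-linked receptors was not tested. Lcch3 averaged 17.4 ± 5.04 CPM in elav null, 6.45 ± 1.55 in double null, 16.5 ± 0.541 in WDd and 18.1 ± 0.36 in WT (SD, n = 3 each). Nmdar2 averaged 105 ± 15.1, 96.2 ± 17.4, 90.4 ± 14.5 and 101 ± 45.2 CPM in the same order.

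The transmitters these receptors bind depend on genes that make, load and clear them. A list of 6 genes covered GABA synthesis, transport and breakdown and a further metabotropic receptor, GABA-B-R3. In the double null 3 of them fell and 1 rose, with a median log2 fold change of -0.50. Of all genes tested, 14.7% were called lower and 6.68% higher in this comparison with WT. Not called were Gabat and GABA-B-R3, the latter at 33.8 to 40.3 CPM in the double null, against 27.5 to 64.3 CPM in WT. VGAT, which loads GABA into synaptic vesicles, had 6.09, 2.77 and 7.19 CPM in the double null, against 37.4, 40.9 and 48.3 CPM in WT. It had 44.6, 39.8 and 1.67 CPM in elav null, the low value in the library labelled replicate 3. Its log2 fold change in the double null was -2.98 ± 0.74 (edgeR adjusted p = 0.0105), and the call was lost without double null replicate 2 (adjusted p = 0.0586). Gad1, which makes GABA from glutamate, differed by -1.14 ± 0.32 (edgeR adjusted p = 0.0206), and Gat, the plasma membrane GABA transporter of glia, by -0.82 ± 0.20 (adjusted p = 0.00988). Ssadh, which acts at a later step of GABA breakdown and not on GABA itself, was higher by 0.53 ± 0.17 (edgeR adjusted p = 0.0362). All 3 calls were lost without double null replicate 1. Those of Gad1 and Gat were also lost without double null replicate 3, Gad1 without WT replicate 3, and Ssadh without double null replicate 2, WT replicate 2 or WT replicate 3.

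For glutamate, 2 of 8 tested genes of synthesis, transport and cycling fell in the double null and 1 rose, or 3 with RLE factors and in DESeq2 and 2 without WT replicate 1. The shares over all genes tested were 14.7% lower and 6.68% higher in the reported fit. VGlut, the vesicular glutamate transporter, had 44.7, 43.8 and 50.9 CPM, against 119, 164 and 226 CPM in WT (log2 fold change -1.87 ± 0.36, edgeR adjusted p = 0.00205). Got2, a mitochondrial aspartate aminotransferase, differed by -1.22 ± 0.22 (edgeR adjusted p = 0.00123), and Gdh, glutamate dehydrogenase, was higher by 0.81 ± 0.18 (adjusted p = 0.00595). Gdh was also called higher in elav null, at 2553 to 3085 CPM, against 1374 to 1692 CPM in WT.

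A list of 16 scaffold, neuroligin, kinase, G protein and ion channel genes was read as possible partners of such receptors. In the double null, where edgeR called 14.7% of all genes tested lower, it called 7 of the 16 lower and none higher. DESeq2 called 6 of them lower and 1 higher. Only 4 were called lower without double null replicate 1 or 3, and 5 with RLE factors or without WT replicate 2 or 3, which then called 1 higher. Galphao, Ggamma1 and Gbeta13F, G protein subunits, were the genes whose calls were lost, and the 4 named next kept theirs in 12 of 12 alternatives. Irk2, an inward rectifier potassium channel, differed by -2.56 ± 0.25 (log2; edgeR adjusted p = 1.58e-05) and CaMKII, the calcium-dependent kinase of synapses, by -1.05 ± 0.20 (adjusted p = 0.00165). Galphaq, a G protein alpha subunit, differed by -1.01 ± 0.17 (edgeR adjusted p = 0.000815), and dlg1, a synaptic scaffold, by -1.0 ± 0.20 (adjusted p = 0.00286). Of 6 other genes for ionotropic glutamate receptors and auxiliary subunits, only Neto passed, an auxiliary subunit known from the receptors of the fly neuromuscular junction. It had 7.12, 15.8 and 10.7 CPM in the double null, against 21.6, 21.2 and 33.1 CPM in WT (log2 fold change -1.17 ± 0.37, edgeR adjusted p = 0.0393), a call lost with RLE factors and without any of double null replicates 1 and 3 or WT replicates 1 to 3. Of 8 other ligand-gated chloride channel genes, edgeR called 0, with 0 under an unadjusted p of 0.05 and 0 in DESeq2. The muscle markers were lower in the same 2 genotypes as Neto, and their part in its level was not tested. Of all genes tested, 17.7% were called in elav null against WT. There edgeR called 1 gene of the GABA list higher, and 3 of the glutamate list higher and 1 lower. Without WT replicate 2 these counts were 0, 1 and 0. The GABA list call was also lost when elav null replicates 1 or 2 or WT replicate 3 was left out. The lower call of the glutamate list was also lost with RLE factors and when WT replicate 1, elav null replicate 2 or the library labelled replicate 3 of that group was left out. In the scaffold and G protein list 1 gene was called higher and 2 lower in elav null, with 3 higher without WT replicate 3 and 4 lower without elav null replicate 2. Neto fell there too, with 7.54, 11.9 and 4.04 CPM and a log2 fold change of -1.69 ± 0.38 (-1.37 ± 0.34 without the library labelled replicate 3), a call held in all 11 alternatives. Without that library 2 genes of the same ionotropic glutamate receptor list were called higher in elav null, and in the reported fit none was. None of the 8 other chloride channel genes was called in elav null by edgeR, where 2 had an unadjusted p under 0.05 and where DESeq2 and the fit with RLE factors called 2 higher. In WDd no gene of these 5 lists passed edgeR's test against WT or DESeq2's, and 2, both in the glutamate list, had an unadjusted p under 0.05.

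**Figure D5:**
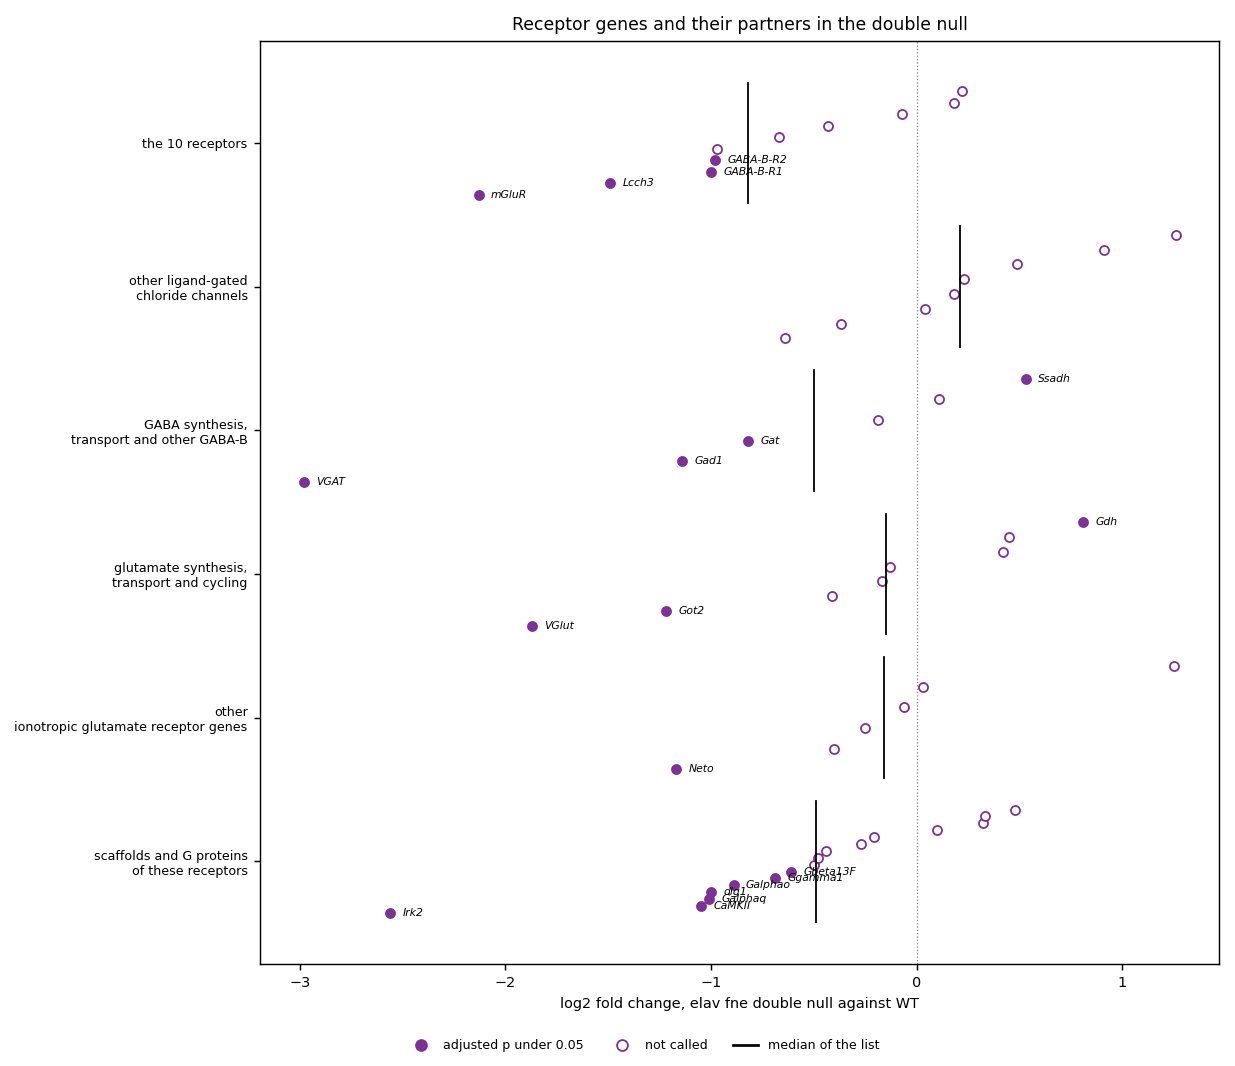
Log2 fold change of the double null against WT for the 10 receptors and 5 lists of related genes; each point is a gene, filled and named where the adjusted p was under 0.05, and the vertical line is the median of the list. The receptors have a median of -0.82, and VGAT, Irk2, mGluR and VGlut lie farthest to the left.

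For each of the 4 receptors that fell, the genes with the most similar profile were found by the root mean square difference of centred log2 CPM over the 12 libraries. The nearest to GABA-B-R2 was kcc, the potassium-chloride cotransporter (0.095), with a mean of 267 CPM in the double null, against 486 CPM in WT. NaPi-III (0.112) and Syn2 (0.13) came next. Nearest to GABA-B-R1 were cpx, the vesicle fusion protein complexin (0.126), tutl (0.13) and jus (0.141). mGluR lay nearest to Vmat, the vesicular monoamine transporter (0.18), then to CG6329 (0.192) and VGlut (0.209). Lcch3 had looser neighbours, among them Nepl16 (0.205) and Gycalpha99B (0.213). Because genes were ranked on the same libraries, these distances describe the 12 libraries only.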

How the data were processed

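The authors deposited raw read counts per gene for each library. The submitters' processing notes name featureCounts 2.0.8, STAR 2.7.11a, DESeq2 1.40.2 and Trim Galore 0.6.7, with the dm6 build. Strand setting and treatment of multiply mapped reads are not given in the sources used here, so reads of overlapping genes could not be told apart. Positions follow the RefSeq table and exon lengths the Ensembl annotation of the same assembly.

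From the counts, 14031 genes that passed filterByExpr were tested in edgeR 4.0.16 (R 4.3.3): TMM factors, quasi-likelihood F tests, all 12 libraries in 1 model with group as the only term, two-sided, Benjamini-Hochberg over all genes tested. The common biological coefficient of variation was 0.595. Ratios used counts plus 0.5 and exact permutation tests over libraries. The test was checked on simulated counts. Alternatives were RLE factors, no filter on low counts, DESeq2 1.42.0, a replicate block, the 6 libraries compared alone, each library left out and, for ratios, 5 counts added; the marker sum was also taken without its most abundant gene, and the fit without the 3 libraries detecting the fewest genes was chosen from earlier results of these data.

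The receptors and lists were chosen with earlier results of these data known. Named were all 10 receptors, at most 4 called genes per list with the largest fold change, elav and fne, and the 3 genes nearest each called receptor, of which 1 is not reported here; roX2, Ranbp16 and CG5577 were added for position. The listed gene genderblind was not matched.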

Additional observations from a re-analysis of the deposited data

How the results depend on the processing

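The 4 receptor calls of the double null against WT held in all 12 alternatives, the replicate block included (4 called). Of 690 recomputed fold changes of receptors, 68 turned sign, none with a call in either fit and none beyond 0.43 in size. Nmdar2 in the double null was 0.05 with RLE factors and 0.05 in DESeq2, and -0.31 to 0.35 with single libraries left out. Left-out ranges that crossed 0 were -0.69 to 0.01 for Rdl in the double null, 0.0 to 0.56 for GluRIB in elav null and -0.42 to 0.24 for Nmdar2 in WDd. That of the GABA-B-R2 to GABA-B-R1 ratio in the double null was -0.09 to 0.05. Of the recomputed differences relative to the summed neuronal markers, over all groups compared, 16 turned sign and 404 did not.

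Of the double null against elav null, 0 receptors were called with RLE factors, 0 with the replicate block, 0 with 6 libraries and 3 in DESeq2, and 0 to 5 with a library left out. All genes called there, 32 in the reported fit, were 7 with RLE factors, 2 with the block, 0 with 6 libraries, 577 in DESeq2 and 0 to 1047 with a library left out. In WDd against WT the 28 calls became 16 with the block, 87 without the 3 libraries detecting the fewest genes, 154 in DESeq2 and 4 to 35 with a library left out. In elav null against WT the 2479 became 1273 with 6 libraries and 1624 to 2491 with a library left out. For WDd, 2933 calls against the double null became 4516 with 6 libraries and 1913 to 2370.0 with a library left out, and 2356 against elav null became 1443 to 2467. Fewer libraries enter some of these fits; otherwise the cause was not tested. RLE factors moved the median of all genes in the double null against WT to 0.10, against -0.03 with TMM, and higher calls to 42.4%, against 31.3%. Higher calls of WDd against the double null became 56.3%, against 68.4%. Replicate numbers did not pair libraries: 3 of 18 same-number correlations exceeded 0.1 (-0.24 to 0.242). Of 276 recomputed list counts, 52 moved beyond 1.5 times. The fit without 3 libraries leaves elav null with 1 and gave no value for it. Depth limits Grd most.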

Other observations

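The level of each receptor was also expressed as a share of the summed CPM of the 10, as a description with no test. GluRIB took 12% ± 0.715 of the sum in the double null, 8.72% ± 0.38 in elav null, 7.62% ± 0.0513 in WDd and 6.95% ± 0.151 in WT (SD, n = 3 each). Nmdar2 took 15.8% ± 1.33 in the double null, against 11% ± 0.904 in WT. mGluR took 2.19% ± 0.35 in the double null, against 6.54% ± 0.552 in WT. Rdl took 34.1% ± 1.15 in the double null and 30.3% ± 3.8 in WT. The median SD between libraries of the log2 CPM of the 10 receptors was 0.15 in the double null, 0.39 in elav null, 0.16 in WDd and 0.44 in WT. Over all genes tested the same medians were 0.30 in the double null, 0.51 in elav null, 0.25 in WDd and 0.38 in WT.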
